A study of Mus musculus with 6 samples.

Results

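The transcripts described here are 46 loci whose symbols begin with Gm followed by a number or end in Rik, and which had a higher level (CPM, the count per 1000000 counts of the library) in every forskolin library than in any DMSO library. They were chosen by these values: a mean count of at least 10 over the 6 libraries, and each forskolin library at 1.5 times the highest DMSO library or more. The table has 37411 rows, of which 15042 carry a Gm or Rik symbol and 2125 of those have a mean count of 10 or more. A further 5 loci that meet the rule, among them the host transcript of miR-132 and miR-212, are left out by name, and the remaining 2074 Gm and Rik loci serve below as the loci set beside the 46. The libraries came from hippocampal neurons of CD-1 IGS mouse pups at postnatal day 0, kept for 16 days in vitro. Libraries 1, 2 and 3 received the solvent dimethyl sulfoxide (DMSO) and libraries 4, 5 and 6 received 50 µM forskolin, in each case for 30 min. The labels do not say whether the 3 libraries of a group came from separate cultures or animals, so p-values measure only the spread between these libraries. Such primary cultures hold glia as well as neurons.

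Gm symbols are running numbers given to predicted mouse genes, and Rik symbols name cDNA clones of the RIKEN collection; neither says anything about function. Many of these loci are long noncoding RNAs. Some lie antisense to a coding gene, some start beside a coding gene's promoter and run the other way (head to head), and some lie in an intron. Forskolin activates adenylyl cyclase, cyclic AMP then activates protein kinase A, and the kinase phosphorylates CREB, a transcription factor that binds the cAMP response element (CRE). Genes that answer within minutes without new protein synthesis are called primary response genes. Fos is the best known of them, and its protein binds AP-1 sites.

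Sequences are shown for the short RNAs among the 46 loci, because they are short enough to be read whole, and then for the promoters in which a searched motif was found. Gm23187 and Gm23202 are annotated as small nucleolar RNAs (snoRNAs, guides for chemical modification of other RNAs), and so is Gm22490. Gm25994 is annotated as a microRNA gene. Gm23187 lies at chr2:130277195-130277280 on the plus strand, Gm23202 at chr5:146835144-146835272 on the plus strand, Gm22490 at chr5:21117083-21117201 on the minus strand and Gm25994 at chr11:106783171-106783271 on the minus strand (GENCODE M21, build GRCm38). Capitals mark a C box (ATGATG or GTGATG within the first 20 bases) and a D box (CTGA within the last 15 bases) in Gm23187. In Gm23202 they mark an H box (ANANNA within 20 bases of the middle) and an ACA box (ACA within the last 8 bases). By the same search on the given strand, 22.4% of 1507 annotated snoRNA transcripts hold the C and D boxes, 39.2% hold only the H and ACA boxes and 38.5% hold neither combination, as Gm22490 does.
Gm23187: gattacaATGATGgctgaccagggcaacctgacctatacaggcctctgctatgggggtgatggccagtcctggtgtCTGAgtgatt
Gm23202: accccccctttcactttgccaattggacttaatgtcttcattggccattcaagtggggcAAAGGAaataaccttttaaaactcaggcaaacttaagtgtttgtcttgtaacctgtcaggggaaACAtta
Gm22490: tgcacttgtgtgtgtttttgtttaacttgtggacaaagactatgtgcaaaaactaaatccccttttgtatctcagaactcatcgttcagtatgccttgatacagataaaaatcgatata
Gm25994: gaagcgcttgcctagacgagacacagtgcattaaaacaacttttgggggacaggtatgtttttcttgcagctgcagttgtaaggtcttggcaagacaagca

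The long noncoding locus Gm27028 contains the hairpin of the microRNA gene Mir30c-2, from chr1:23291701 to 23291784 on the plus strand. Its mature products in RefSeq (GRCm38.p6) are shown with the seed, bases 2 to 8, in capitals. The 5p product carries the seed of the miR-30 family, and the 3p product has another seed.
mmu-miR-30c-5p: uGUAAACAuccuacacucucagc
mmu-miR-30c-2-3p: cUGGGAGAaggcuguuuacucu

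RefSeq gives promoters of 300 bases (250 before to 50 after the annotated start, GRCm38.p6) for 13 of the 46 loci, 15 windows in all. The full CRE (TGACGTCA, which contains the core TGACG on both strands) was found in 0 of these 15 windows on either strand and in 1.79% of 32851 promoters of all genes. The CRE core TGACG was found in 4 of 15 windows (26.7%), against 20.8% of all promoters and 14.9% of those with Gm and Rik symbols. Since 2 of the windows belong to C730034F03Rik, this is 3 of 13 loci (23.1%), against 6228 of 27025 genes in all, a like share. The AP-1 site TGANTCA was found in 2 of 15 (13.3%), against 7.81%. The CArG box, the site of serum response factor, was found in 0 of 15, against 1.63%. A match is a string of letters and not a measured binding site, and the absence of a match says only that the letters are not in the window. The 6 windows with a match are printed 5′ to 3′ in the direction of the locus, all of them on the plus strand, with the matched letters in capitals. Gm17501 (chr3:145649827-145650126) starts head to head with Cyr61 and has the CRE core 38 bases before its RefSeq start. Gm15569 (chr15:86185478-86185777) starts inside the coding gene Cerk on the other strand. C730034F03Rik, near Chkb, has 2 annotated starts, in windows chr15:89429273-89429572 (a) and chr15:89429765-89430064 (b). A530013C23Rik (chr2:167690509-167690808) starts beyond the end of the transcription factor gene Cebpb, and E130215H24Rik (chr2:150667244-150667543) lies antisense to Acss1. These last 2 hold AP-1 sites.
Gm17501: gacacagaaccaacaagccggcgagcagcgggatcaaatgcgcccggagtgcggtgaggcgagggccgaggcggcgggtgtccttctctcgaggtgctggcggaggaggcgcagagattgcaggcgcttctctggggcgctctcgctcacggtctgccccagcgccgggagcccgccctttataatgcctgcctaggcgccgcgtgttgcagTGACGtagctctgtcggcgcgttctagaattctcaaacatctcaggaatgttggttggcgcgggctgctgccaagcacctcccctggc
Gm15569: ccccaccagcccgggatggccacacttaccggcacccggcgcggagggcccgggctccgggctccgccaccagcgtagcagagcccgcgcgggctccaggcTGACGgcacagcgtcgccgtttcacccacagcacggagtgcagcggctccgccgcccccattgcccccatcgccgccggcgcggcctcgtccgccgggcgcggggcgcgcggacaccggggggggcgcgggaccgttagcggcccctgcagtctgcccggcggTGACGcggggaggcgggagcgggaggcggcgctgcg
C730034F03Rik a: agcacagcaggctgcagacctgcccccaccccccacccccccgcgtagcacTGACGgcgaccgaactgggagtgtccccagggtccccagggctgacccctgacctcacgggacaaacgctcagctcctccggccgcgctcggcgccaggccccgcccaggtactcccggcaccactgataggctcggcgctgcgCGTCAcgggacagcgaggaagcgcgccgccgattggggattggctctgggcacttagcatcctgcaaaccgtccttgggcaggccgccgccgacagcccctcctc
C730034F03Rik b: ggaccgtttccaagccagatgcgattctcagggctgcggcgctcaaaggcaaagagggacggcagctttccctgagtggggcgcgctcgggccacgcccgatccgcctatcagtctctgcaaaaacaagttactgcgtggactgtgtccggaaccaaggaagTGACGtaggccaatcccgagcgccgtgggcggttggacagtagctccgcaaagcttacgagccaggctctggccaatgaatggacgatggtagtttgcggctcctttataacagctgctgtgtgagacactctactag
A530013C23Rik: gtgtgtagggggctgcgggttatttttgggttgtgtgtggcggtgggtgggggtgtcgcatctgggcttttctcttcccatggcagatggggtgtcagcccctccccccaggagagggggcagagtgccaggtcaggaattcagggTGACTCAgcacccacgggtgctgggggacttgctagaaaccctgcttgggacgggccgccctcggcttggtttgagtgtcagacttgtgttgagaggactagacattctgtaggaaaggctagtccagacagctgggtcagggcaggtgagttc
E130215H24Rik: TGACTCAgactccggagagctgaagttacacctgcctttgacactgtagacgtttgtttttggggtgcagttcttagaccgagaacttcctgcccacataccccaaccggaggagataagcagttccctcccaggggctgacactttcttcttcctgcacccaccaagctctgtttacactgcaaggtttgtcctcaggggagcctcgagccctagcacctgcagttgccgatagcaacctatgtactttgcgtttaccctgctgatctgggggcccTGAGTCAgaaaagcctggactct

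Total counts ran from 28342764 to 47548379 per library. The 46 loci together summed to 28.3, 24.3 and 29.5 CPM with DMSO (libraries 1, 2 and 3, the order kept below) and to 94.7, 96.5 and 62.6 CPM with forskolin (libraries 4, 5 and 6). In this sum library 6 stood between the DMSO libraries and the other treated libraries. The mitochondrially encoded genes took 14.7 to 24.6% of counts in the DMSO libraries and 27.8 to 34.6% in the forskolin libraries, and with these genes left out of the column totals the rule would have chosen 73 loci rather than 46. The counts behind single loci were small. Mean counts ran from 10.2 (Gm23187) to 203 (Gm14325) with a median of 24.2, 20 loci had a mean under 20, and in 18 loci no DMSO library exceeded 10 counts.

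**Figure D1:**
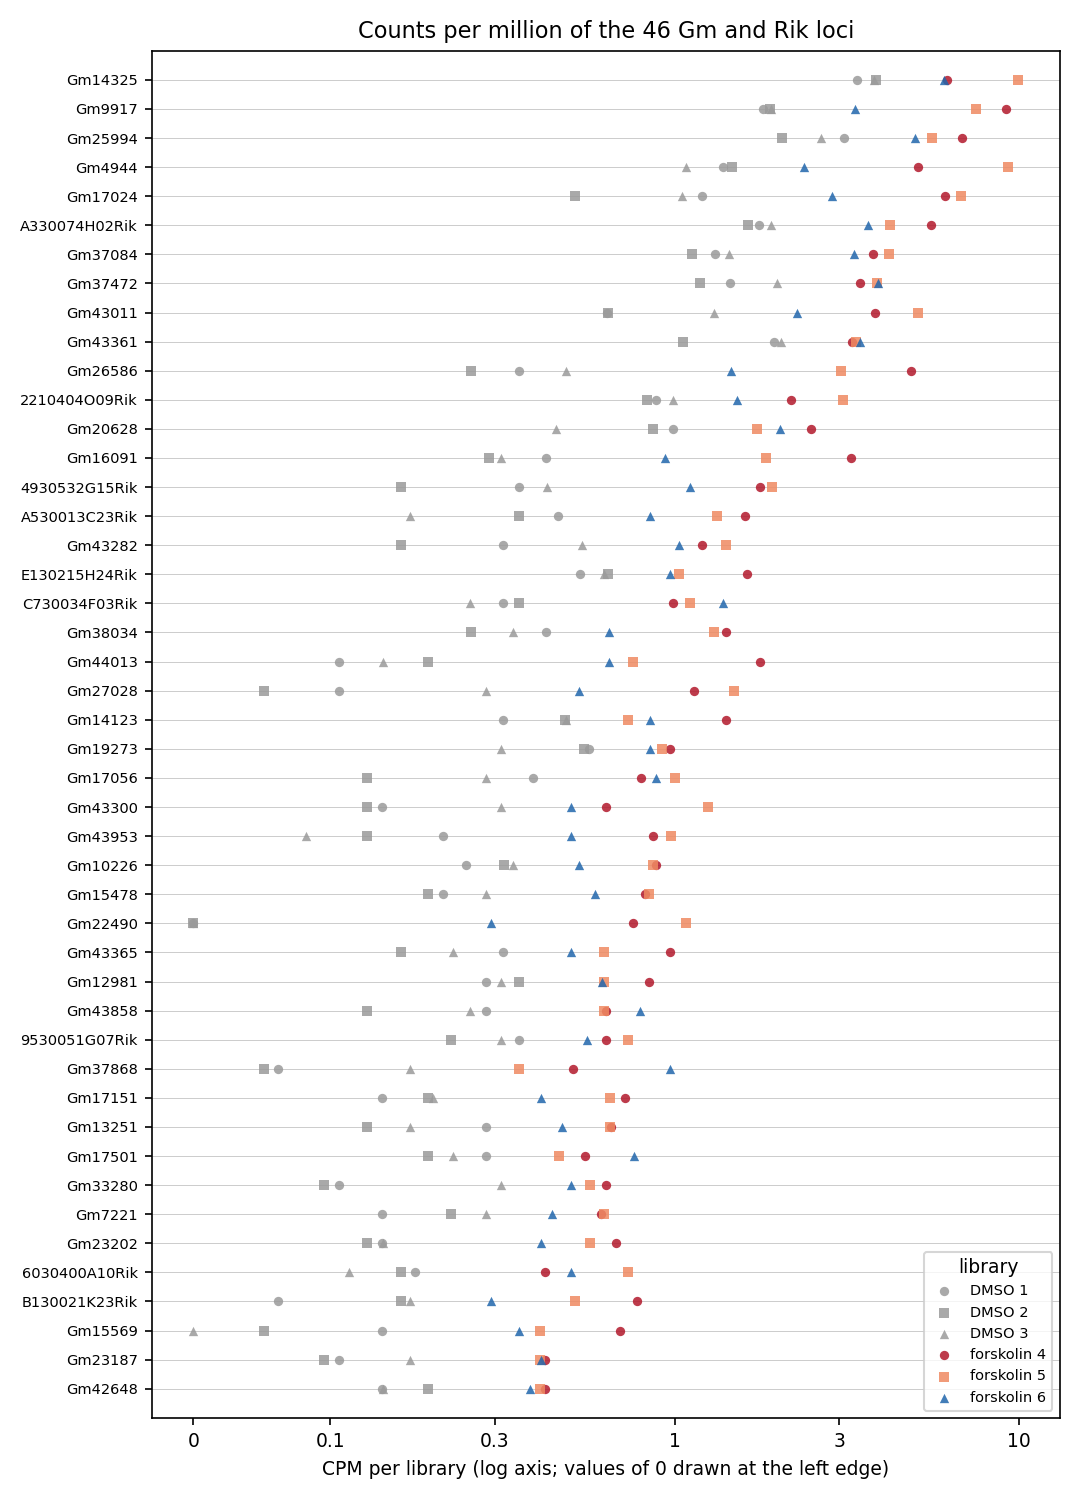
CPM (log axis) of each of the 46 loci in each of the 6 libraries, ordered by the forskolin mean; grey symbols are DMSO libraries 1 to 3 and coloured symbols forskolin libraries 4 to 6. On every line the coloured symbols lie to the right of the grey ones, which the rule requires, and the blue triangle of library 6 is the lowest treated value in 35 of the 46 loci.

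The plot of CPM by library shows how far the treated libraries stood from the rule's threshold. The lowest forskolin library was 1.505 to 3.36 times the highest DMSO library, with a median of 1.76, in the 45 loci detected in DMSO, and 18 of the 46 loci, Gm22490 with no DMSO counts among them, reached a ratio of 2. Just inside the threshold were Gm19273 (1.505), E130215H24Rik (1.511) and Gm14123 (1.518). Just outside it were Gm16124 (1.488), Gm37298 (1.485) and Gm43389 (1.485), so that the border of the set separates loci with nearly equal values. The rule itself was met by 51 of 2125 Gm and Rik loci (2.40%, the 5 loci left out by name included), by 58 of 14315 genes with other symbols (0.405%), and by 109 of 16440 genes with a mean count of 10 or more (0.663%). In the opposite direction, with each DMSO library at 1.5 times the highest forskolin library or more, there were 37 Gm and Rik loci (1.74%) among 378 genes (2.30%).

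The fit across all genes is given for the 46 loci as a description, since the rule used the same contrast. All 46 passed edgeR's filter on low counts. Their median log2 fold change was 1.80 (1.79 with Gm22490 at its lower bound), against 0.13 in the 1987 other Gm and Rik loci tested and 0.02 in all genes tested, and it ranged from 1.06 in Gm19273 to 3.19 in Gm26586, Gm22490 aside. With edgeR's quasi-likelihood test and Benjamini-Hochberg adjustment 5 of the 46 had an adjusted p under 0.05 (10.9%), where 0.172% of all 16233 genes tested were called higher and 1.34% lower. These were Gm37084, C730034F03Rik, Gm26586, Gm17024 and A330074H02Rik. The number depended on the libraries and the tool. Without library 6 edgeR called 45 of the 46 higher (16.5% of all genes then tested), and it called 0 in each fit that lacked library 1, 2, 3, 4 or 5. It also called 0 with the trend on GC content removed, where the median was 1.66. In each of these fits 0 genes of any kind were called (0%), and 45 or 46 of the 46 had an unadjusted p under 0.05, where 11.6 to 19.1% of all genes tested had. DESeq2 called 26 of the 33 loci to which it gave an adjusted p (5.20% of all genes were called higher), and limma-voom called 3 (0.148%).

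The share of loci inside a coding gene on its own strand was larger among the 46 than among other Gm and Rik loci. Of the 41 loci with a GENCODE entry under their own symbol, 17 (41.5%) overlapped a coding gene on its own strand, against 17.9% of 1902 other annotated loci. A head-to-head start within 1 kb of a coding gene's start was found for 10 (24.4%, against 26.9%), another overlap on the opposite strand for 6 (14.6%, against 25.5%), and none of these for 8 (19.5%, against 29.8%). In 13 of the 41 (31.7%) the locus shared no exon base with the coding gene around it on the same strand, that is, it lay in introns, against 14.9% of the others. Within the same-strand class the intronic share was alike, 76.5% against 75.6%. The commonest annotated type was TEC, the annotators' class for transcribed regions whose gene model still awaits experimental proof, with 16 loci (39.0%, against 18.8%), and 12 of these 16 lay on the strand of a coding gene (75.0%, against 48.2% of other TEC loci). A single exon was annotated for 24 loci (58.5%, against 36.2%). Median GC content was 44.2%, against 47.2% in the others, and median span was 2505 bases, against 4378. Antisense types made up 8 (19.5%, against 20.3%) and coding types 3 (7.32%, against 18.0%). The 4 loci matched only by a RefSeq synonym are all coding, which makes 7 coding loci of 45 (15.6%); synonyms were not searched for the other loci. Shares are descriptions, with no test.

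**Figure D2:**
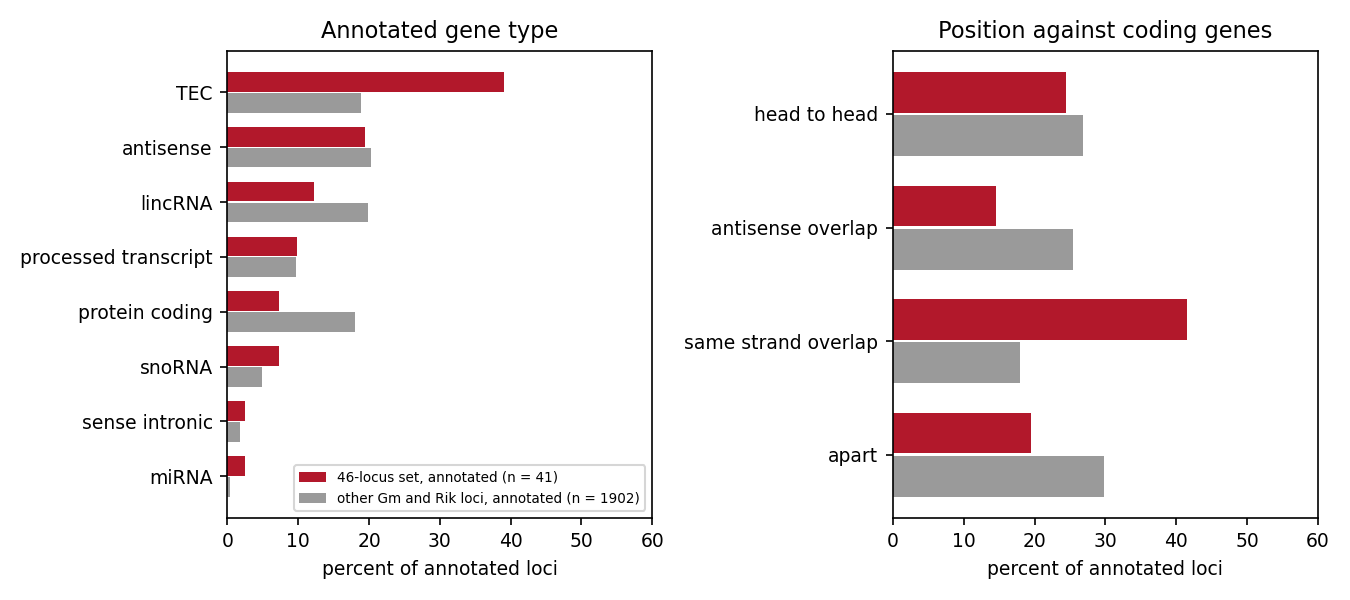
Annotated gene type (left) and position against coding genes (right) as percent of annotated loci, for the 41 annotated loci of the set (red) and 1902 other Gm and Rik loci (grey). The red bars exceed the grey ones most in the TEC type (39.0 and 18.8%) and in overlap on the same strand (41.5 and 17.9%).

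Gm22490 aside, which had no counts in DMSO, the largest fitted fold change belonged to a locus antisense to Tpm4, which encodes an actin-binding tropomyosin. Gm26586 (chr8:72137389-72140820, minus strand), a gene with 2 exons, had 0.353, 0.256 and 0.482 CPM with DMSO and 4.86, 3.03 and 1.46 CPM with forskolin. The groups were far apart, with library 4 highest and library 6 nearest to DMSO, and the fitted log2 fold change was 3.19 ± 0.52 (SE). Gm16091 (chr8:72147601-72160855, minus strand) lies 6781 bases from it, starts head to head with Rab8a, a small GTPase of vesicle traffic, and reaches into Tpm4. It had 0.423, 0.288 and 0.312 CPM with DMSO and 3.26, 1.84 and 0.937 CPM with forskolin (log2 fold change 2.67 ± 0.50). Library order was the same in both loci, 4 above 5 above 6. Tpm4 itself had 37.4, 27.7 and 28.9 CPM with DMSO and 58.9, 44.1 and 31.9 CPM with forskolin, so that its groups overlapped (edgeR log2 fold change 0.63 ± 0.22, Benjamini-Hochberg adjusted p = 0.174). Rab8a had a log2 fold change of -0.12 (adjusted p = 0.448, edgeR). Gm26586 shares 134 exon bases (7.7% of its exons) with Tpm4. Whether the counting used strand is not given in the sources used here, and reads of the 29 loci that overlap a coding gene cannot be told apart from reads of that gene where exons coincide.

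Other loci that start head to head with a coding gene were above DMSO in every treated library, as the rule requires, and edgeR's quasi-likelihood test on all 6 libraries called 0 of the 9 tested coding genes with a head-to-head locus. Of these, 1 (Cyr61) had an unadjusted p under 0.05, where 23.3% of coding genes had. limma-voom called 0 (1.34% of all genes), DESeq2 called Cyr61 (11.6% of all genes) and edgeR without library 6 called Cyr61 and Cerk (33.6% of all genes). Gm44013 (chr6:140620162-140622423, minus strand) starts 240 bases from Aebp2, a cofactor of the Polycomb repressive complex PRC2, and had the largest ratio among the 45 loci detected in DMSO, 3.36. It had 0.106, 0.192 and 0.142 CPM with DMSO and 1.77, 0.758 and 0.644 CPM with forskolin, library 4 standing above the other treated libraries. Aebp2 ranged from 21.9 to 30.6 CPM with DMSO and from 26.1 to 31.2 CPM with forskolin (log2 fold change 0.20, adjusted p = 0.387, edgeR). 4930532G15Rik (chr1:185359461-185362865, minus strand), 179 bases from the start of the tRNA synthetase gene Eprs, had 0.353, 0.160 and 0.425 CPM with DMSO and 1.77, 1.92 and 1.11 CPM with forskolin. Libraries 4 and 5 were alike and library 6 lower, and Eprs had a log2 fold change of 0.21 (adjusted p = 0.367, edgeR).

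Gm15569 (chr15:86185728-86187152, plus strand) begins within Cerk, the ceramide kinase gene, on the other strand. Its counts were 4, 2 and 0 with DMSO and 33, 15 and 12 with forskolin, or 0.141, 0.0640 and 0 CPM against 0.694, 0.406 and 0.352 CPM. These few counts carry a wide counting error, and the fitted log2 fold change of 2.96 had an SE of 0.76. Cerk had a log2 fold change of -0.19 (adjusted p = 0.358, edgeR). C730034F03Rik (chr15:89429589-89430868, plus strand), annotated as coding, lies opposite the choline kinase gene Chkb, with 319 bases between the starts. It had 0.318, 0.352 and 0.255 CPM with DMSO and 0.988, 1.11 and 1.38 CPM with forskolin, and was among the few loci with library 6 highest. Chkb had a log2 fold change of 0.03 (adjusted p = 0.914, edgeR), and shares 25.0% of the exon bases of C730034F03Rik.

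Gm20628 (chr3:96267075-96270289, minus strand) overlaps a cluster of replication-dependent histone genes and starts near Hist2h2bb, an H2B gene. It had 0.988, 0.864 and 0.453 CPM with DMSO and 2.48, 1.73 and 2.02 CPM with forskolin. The treated libraries lay close together, and Hist2h2bb also lay above DMSO in all 3 of them, at 2.89 ± 0.393 and 3.52 ± 0.117 CPM (SD, n = 3 each; log2 fold change 0.40, adjusted p = 0.291, edgeR). Hist2h3b, an H3 gene within the locus, was listed at 0 counts in every library. Gm9917 (chr9:107558809-107568415, minus strand) runs antisense through Tusc2 and Rassf1, a Ras-association tumour suppressor gene, and starts near the hyaluronidase gene Hyal2. It had 1.80, 1.89 and 1.90 CPM with DMSO and 9.19, 7.50 and 3.34 CPM with forskolin, the DMSO libraries being nearly equal and library 6 at 0.400 times the mean of 4 and 5. Rassf1 had 4.66, 3.33 and 3.03 CPM with DMSO and 8.01, 6.09 and 3.60 CPM with forskolin, overlapping between the groups (log2 fold change 0.80 ± 0.32, adjusted p = 0.212, edgeR). It shares 41.5% of the exon bases of Gm9917. Tusc2 and Hyal2 had log2 fold changes of -0.26 and -0.24 (adjusted p = 0.367 and 0.497, edgeR).

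The remaining named locus on the strand opposite a coding gene was Gm43361 (chr5:122496159-122500848, plus strand), antisense to Atp2a2, which encodes the calcium pump SERCA2 of the endoplasmic reticulum. It had 1.94, 1.06 and 2.04 CPM with DMSO and 3.28, 3.36 and 3.46 CPM with forskolin. The 3 treated libraries were almost equal here, library 6 included, and Atp2a2 had a log2 fold change of -0.13 (adjusted p = 0.726, edgeR).

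Loci on the strand of a coding gene formed the largest group, most of them in introns. Gm17024 (chr12:40209487-40211073, minus strand) lies in an intron of Ifrd1, which encodes a transcriptional coregulator induced by growth factors. It had 1.20, 0.512 and 1.05 CPM with DMSO and 6.10, 6.79 and 2.87 CPM with forskolin (log2 fold change 2.64 ± 0.45). Libraries 4 and 5 were far above library 6, which was itself well above DMSO. Ifrd1 had 44.6, 41.0 and 53.7 CPM with DMSO and 59.3, 62.2 and 65.1 CPM with forskolin, without overlap and with library 6 highest (log2 fold change 0.52 ± 0.14, adjusted p = 0.121, edgeR). Gm17056, another of the 46 loci, lies 8382 bases from Gm17024 on the other strand and starts head to head with Lsmem1, which had too few counts to be tested. Its log2 fold change was 1.86 ± 0.40.

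Gm37084 (chr1:131086252-131092149, minus strand) lies inside Mapkapk2, which encodes a kinase downstream of p38, and had the smallest adjusted p of the set. It had 1.31, 1.12 and 1.44 CPM with DMSO and 3.76, 4.20 and 3.31 CPM with forskolin, and the treated libraries differed little (log2 fold change 1.65 ± 0.24, adjusted p = 0.0381, edgeR). Mapkapk2 had 51.1, 42.9 and 43.6 CPM with DMSO and 53.3, 46.9 and 40.5 CPM with forskolin, which overlapped (log2 fold change 0.14 ± 0.12, adjusted p = 0.523, edgeR). Gm43011 (chr3:126600029-126604461, plus strand) lies in Camk2d, the delta subunit of calcium/calmodulin-dependent kinase II, 3727 bases after its start. It had 0.635, 0.640 and 1.30 CPM with DMSO and 3.81, 5.09 and 2.26 CPM with forskolin. DMSO library 3 was the highest of its group in Gm43011 and also in Camk2d, whose level ran from 72.3 to 134 CPM with DMSO and from 60.6 to 131 CPM with forskolin (log2 fold change -0.16, adjusted p = 0.808, edgeR).

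Gm37868 (chr1:128143614-128146348, plus strand), inside R3hdm1, was the locus in which library 6 stood highest against the mean of libraries 4 and 5, at 2.26 times that mean. It had 0.0706, 0.0640 and 0.170 CPM with DMSO and 0.505, 0.352 and 0.967 CPM with forskolin. R3hdm1 had 42.2, 52.0 and 70.5 CPM with DMSO and 31.4, 36.8 and 63.3 CPM with forskolin. Library 3 was the highest DMSO library and library 6 the highest treated library in both genes, and the groups of R3hdm1 overlapped (log2 fold change -0.24, adjusted p = 0.681, edgeR). Gm43953 (chr6:101325339-101328205, minus strand), inside the ubiquitin ligase gene Pdzrn3, had 0.212, 0.128 and 0.0850 CPM with DMSO and 0.862, 0.974 and 0.498 CPM with forskolin. Library 6 was the lowest of the treated libraries, and Pdzrn3 had a log2 fold change of -0.26 (adjusted p = 0.282, edgeR).

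6030400A10Rik (chr5:43265157-43266368, plus strand) lies in Cpeb2, an RNA-binding regulator of translation. It had 0.176, 0.160 and 0.113 CPM with DMSO and 0.421, 0.731 and 0.498 CPM with forskolin, with library 5 highest, and Cpeb2 had a log2 fold change of 0.11 (adjusted p = 0.794, edgeR). Gm43858 (chr3:152386260-152388037, plus strand) lies in the deubiquitinase gene Usp33. It had 0.282, 0.128 and 0.255 CPM with DMSO and 0.631, 0.623 and 0.791 CPM with forskolin, with library 6 highest, and Usp33 had a log2 fold change of -0.05 (adjusted p = 0.887, edgeR).

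The short RNAs shown above were counted at low depth or share their whole sequence with a host gene. Gm22490, the snoRNA with neither box combination, had 0 counts in every DMSO library and 36, 40 and 10 counts with forskolin (0.757, 1.08 and 0.293 CPM). Against a floor of 3 counts per DMSO library this is at least 7.15-fold higher in library 4, at least 10.2-fold in library 5 and at least 2.77-fold in library 6, counting error only. Other snoRNA loci with Gm symbols moved widely between the DMSO libraries as well: over 94 of them the log2 ratio to the mean of the DMSO libraries had medians of -0.59, 0.45 and -1.04 with DMSO and of 0.75, 0.50 and -0.16 with forskolin. Gm23187 had 3, 3 and 6 counts with DMSO and 20, 15 and 14 with forskolin, and lies wholly within exons annotated for Nop56, which encodes a core protein of box C/D snoRNA particles. The treated libraries were nearly equal in CPM, at 0.412 ± 0.00753 (SD, n = 3) against 0.124 ± 0.0402 with DMSO, and Nop56 had a log2 fold change of -0.17 (adjusted p = 0.565, edgeR).

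Gm23202, the snoRNA with H and ACA boxes, lies in the ribosomal protein gene Rpl21. It had 4, 4 and 5 counts with DMSO and 32, 21 and 14 with forskolin, without overlap in CPM (0.137 ± 0.00774 against 0.551 ± 0.132, SD, n = 3), and 51.9% of its bases belong to Rpl21 exons. Rpl21 had a log2 fold change of 0.17 (adjusted p = 0.522, edgeR). Gm25994 lies wholly in exons annotated for Ddx5, an RNA helicase gene, so that reads of either can be counted for the other. It had 3.10, 2.05 and 2.66 CPM with DMSO and 6.81, 5.58 and 4.98 CPM with forskolin (log2 fold change 1.27 ± 0.23), while Ddx5 ran from 306 to 401 CPM with DMSO and from 349 to 391 CPM with forskolin (log2 fold change 0.18, adjusted p = 0.407, edgeR). Mir3064, a microRNA gene 412 bases away whose row was chosen after its values were seen, had 11, 9 and 12 counts with DMSO and 33, 20 and 20 with forskolin (log2 fold change 0.95, adjusted p = 0.145, edgeR). The row of Mir30c-2, inside Gm27028, was 0 in every library. Gm27028 had 0.151 ± 0.116 CPM with DMSO and 1.05 ± 0.486 CPM with forskolin (SD, n = 3), but its counts in DMSO were only 3, 2 and 10.

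Some loci apart from coding genes lay in noncoding hosts. A330074H02Rik (chr7:79510362-79511400, plus strand) lies in the span of Mir9-3hg, the host of a miR-9 gene. It had 1.76, 1.63 and 1.90 CPM with DMSO and 5.55, 4.22 and 3.63 CPM with forskolin (log2 fold change 1.44 ± 0.25). The host, whose row carries the older symbol AI854517 and was chosen after its values were seen, had 19.1, 15.9 and 18.6 CPM with DMSO and 14.7, 11.6 and 15.8 CPM with forskolin, every treated library below every DMSO library (log2 fold change -0.24 ± 0.15, adjusted p = 0.353, edgeR). Gm37472 (chr14:61677443-61681494, minus strand) lies in the noncoding gene Dleu2, a microRNA host. It had 1.45, 1.18 and 1.98 CPM with DMSO and 3.45, 3.87 and 3.90 CPM with forskolin, library 6 being as high as the others, and Dleu2, also chosen after its values were seen, had a log2 fold change of 0.59 (adjusted p = 0.283, edgeR), which turned to -0.11 with the GC trend removed. A530013C23Rik has a second RefSeq window, not printed above, which holds no match. Its GENCODE start lies 759 bases beyond Cebpb. A530013C23Rik had 0.459, 0.352 and 0.170 CPM with DMSO and 1.60, 1.33 and 0.849 CPM with forskolin. Cebpb, chosen after its values were seen, had 8.89, 6.59 and 4.82 CPM with DMSO and 16.0, 12.2 and 4.07 CPM with forskolin. In library 6 Cebpb was thus below every DMSO library while A530013C23Rik was above them. The log2 fold change of Cebpb was 0.79 (adjusted p = 0.362, edgeR), and 1.63 with the GC trend removed.

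The coding loci were mostly zinc-finger genes, a large class of DNA-binding factors, many of them repressors of transposable elements. The share of such genes among the other coding Gm and Rik loci is not given here. A C2H2 finger was searched as C, 2 residues, C, 12 residues, H, 3 residues, H in the translated transcript. Gm14325 (chr2:177831791-177840336, minus strand) has 14 such fingers, Gm4944 (now Zfp994) 17, Gm13251 (Zfp992) 11, Gm7221 (Zfp977) 11, 2210404O09Rik (Zfp995) 9 and Gm10226 only 3. Gm14325 had the highest mean count of the set, with counts of 96, 120 and 134 with DMSO and 294, 368 and 207 with forskolin, or 3.67 ± 0.249 against 7.40 ± 2.22 CPM (SD, n = 3). Gm4944 had 1.38, 1.47 and 1.08 CPM with DMSO and 5.09, 9.28 and 2.37 CPM with forskolin, library 5 highest and library 6 at 0.330 of the mean of 4 and 5. 2210404O09Rik had 0.882, 0.832 and 0.991 CPM with DMSO and 2.17, 3.09 and 1.52 CPM with forskolin, in the same order. Gm10226, 2210404O09Rik and Gm4944 follow each other on chromosome 17, with 186793 and 287180 bases between them. Zinc-finger genes share long stretches of sequence. The transcript of Gm14325 is covered in full at 95% identity by Gm14305, which had a log2 fold change of 0.61 (adjusted p = 0.218, edgeR), and that of Gm10226 by Zfp51, with 1.74 (adjusted p = 0.166, edgeR), so the counts of both are uncertain. Gm14305 and Zfp51 were chosen after their values were seen. Among 315 genes with a Zfp symbol and a mean count of 10 or more, 2 met the ratio rule (0.635%, against 0.663% of all genes at that count).

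The 21 loci outside the naming rule, A530013C23Rik, Gm17501, Gm17056 and Gm27028 above among them, ranged from 0.0640 to 0.640 CPM over the DMSO libraries and from 0.293 to 1.62 CPM over the forskolin libraries, with mean counts of 10.5 to 34.2 and log2 fold changes of 1.06 to 2.85. On the strand of a coding gene were B130021K23Rik in Isy1, Gm12981 in Sesn2, Gm38034 in Foxo1, Gm42648 in N4bp2, Gm43282 in Limch1, Gm43300 in Ptbp2 and Gm43365 in Gak. Antisense to a coding gene were Gm14123 (Apmap), E130215H24Rik (Acss1), Gm15478 (Atp8a1) and Gm17151 (Dot1l), the first of these 57240 bases from E130215H24Rik. 9530051G07Rik starts head to head with Mageh1. Gm33280 lies apart, and Gm19273 had no annotation entry under its symbol or a RefSeq synonym.

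Transcripts of other genes, in some cases of the overlapping gene itself, share sequence with some loci. Of the 41 transcripts compared with all others at 95% identity or more, 13 had no match, 18 were covered for under 20% of their length, 4 for 20 to under 50% and 6 for 50% or more. Of the last, Gm23187, Gm25994, Gm23202 and Gm9917 matched best the gene they overlap, and Gm10226 and Gm14325 matched genes elsewhere on their chromosome.

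Coding genes that overlap a locus or start within 1 kb of it were found for 33 of the 46 loci, 38 genes in 39 combinations, and 34 of these genes were tested. By edgeR's quasi-likelihood test with Benjamini-Hochberg adjustment 0 of the 34 were called, where 1.67% of 13809 coding genes tested were. At an unadjusted p under 0.05 there were 5 (14.7%, against 23.3% of coding genes), all higher: Cyr61, Ifrd1, Tpm4, N4bp2 and Rassf1. DESeq2 called 2 of the 34 (Cyr61, adjusted p = 5.53e-05, and Ifrd1, 0.0158; 11.6% of all genes that DESeq2 gave an adjusted p were called), limma-voom 0, and edgeR without library 6 called 11, 5 higher and 6 lower (33.6% of all genes; 1.34% for limma-voom). The median log2 fold change of the 34 was 0.03, from -0.38 (Dot1l) to 1.85 (Cyr61), and 29 (85.3%) were within 0.5 of 0, as were 72.7% of all coding genes tested and 78.5% of the neighbours of other Gm and Rik loci. For 1328 tested coding neighbours of the other Gm and Rik loci the median was -0.04. The groups did not overlap, forskolin above DMSO, in 3 of the 34 (8.82%, against 5.30% of coding genes and 5.93% of all genes): Cyr61, Ifrd1 and Hist2h2bb. In 7 of the 34 every treated library lay below every DMSO library (20.6%, against 22.1% of coding genes and 20.6% of all genes): Cerk, Dot1l, Foxo1, Gak, Pdzrn3, Rab8a and Tusc2. In 34 of 35 tested combinations the locus had the larger log2 fold change; the loci, but not their neighbours, were chosen on this contrast.

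The exception was Gm17501 (chr3:145650312-145677580, plus strand), described after its values were seen. Its GENCODE start is 331 bases from that of Cyr61 (Ccn1 in current annotation), a secreted matrix protein gene and a primary response gene, and runs away from it. Cyr61 had 94.9, 43.0 and 43.0 CPM with DMSO and 218, 256 and 117 CPM with forskolin (log2 fold change 1.85 ± 0.39, adjusted p = 0.0760, edgeR). Gm17501 had 0.282, 0.192 and 0.227 CPM with DMSO and 0.547, 0.460 and 0.762 CPM with forskolin (log2 fold change 1.43 ± 0.34). The treated libraries stood in different orders: library 6 was the highest for Gm17501 and the lowest for Cyr61. The other 4 tested neighbours with a head-to-head start and no overlap, Eprs, Aebp2, Mageh1 and Rab8a, had log2 fold changes of 0.21, 0.20, 0.21 and -0.12.

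**Figure D3:**
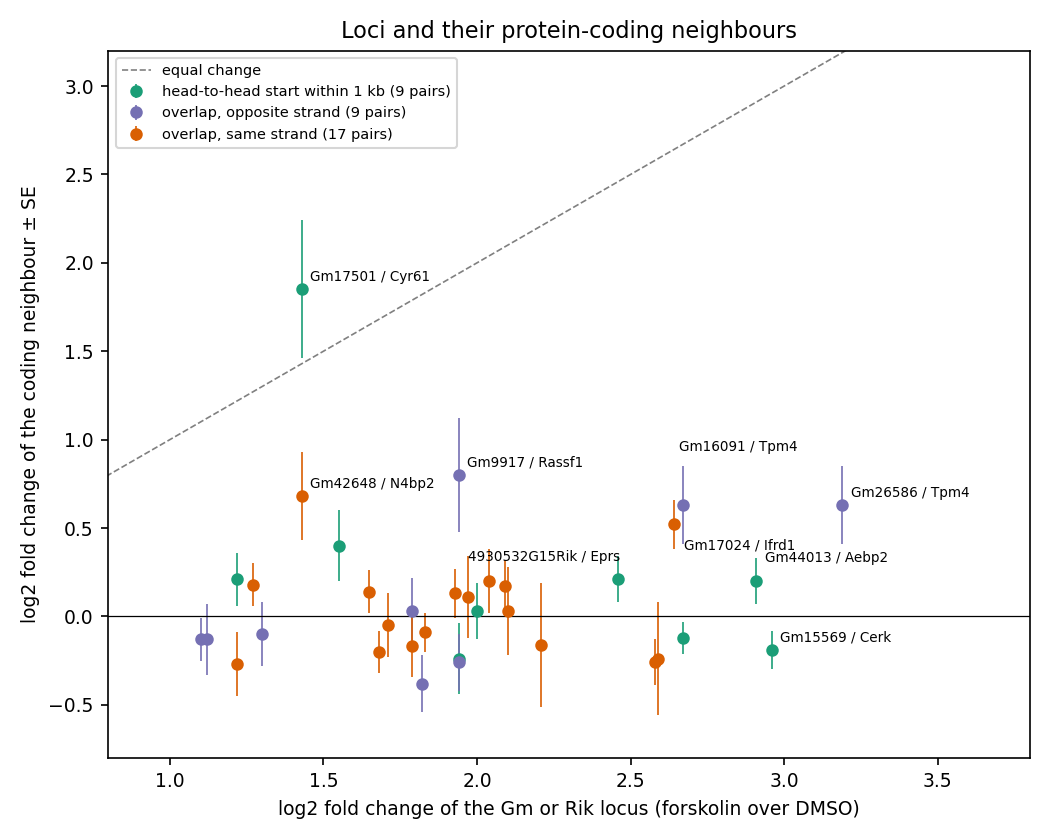
Fitted log2 fold change of each coding neighbour (vertical axis, error bars ± SE) against that of its Gm or Rik locus (horizontal axis), coloured by position, for the 35 tested combinations; the dashed line marks equal change. Points gather near 0 on the vertical axis, with a median of 0.03 over the 34 genes, and only Gm17501 with Cyr61 lies above the line.

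Forskolin library 6 was the lowest treated library in 35 of the 46 loci (76.1%) and the highest in 6. It was the lowest treated library in 78.0% of the 109 genes of any symbol that meet the ratio rule, and in 45.7% of 16440 genes with a mean count of 10 or more. Over the loci, library 6 was at 0.318 (Gm22490) to 2.26 (Gm37868) times the mean of libraries 4 and 5, with a median of 0.717. Over the 46 loci the log2 ratio to the mean of the DMSO libraries had a median of 1.62, 1.64 and 1.28 in libraries 4, 5 and 6, and the 58 genes with other symbols had 2.54, 2.52 and 1.21. By position, the medians in libraries 4, 5 and 6 were 1.95, 1.84 and 1.54 for the 10 head-to-head loci, 1.63, 1.30 and 1.02 for the 6 antisense loci, 1.68, 1.66 and 1.33 for the 17 on the strand of a coding gene, and 1.62, 1.46 and 1.28 for the 8 apart. In each class library 6 had the lowest median. Among other Gm and Rik loci, the 340 on the strand of a coding gene had medians of 0.37, 0.28 and -0.07 in libraries 4, 5 and 6, and the 357 of type TEC had 0.30, 0.24 and -0.09. Their DMSO medians ran from -0.23 to 0.10 and from -0.28 to 0.15.

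Markers of other cell types differed between the treated libraries. The 12 microglia markers summed to 39.3, 24.2 and 23.3 CPM with DMSO and to 234, 369 and 24.7 CPM with forskolin, with no marker at 0 in any library. By edgeR 0 of the 11 tested were called and 10 had an unadjusted p under 0.05 (22.3% of all genes had), DESeq2 called 10 (11.6%) and limma-voom 0 (1.34%). Without library 6 edgeR called 11 of the 12 (33.6% of all genes). Library 6 lay within the DMSO range of the microglia sum. Oligodendrocyte lineage markers summed to 802 to 1033 CPM with DMSO and to 1089, 1469 and 635 CPM in libraries 4, 5 and 6. Astrocyte markers ran from 8016 to 9957 CPM with DMSO and from 7678 to 8749 CPM with forskolin. The 14 neuron markers, among them Rbfox3, Map2 and Syn1, summed to 5389 to 6158 CPM with DMSO and to 3518, 3542 and 5587 CPM with forskolin. Of these 14, 1 was called lower by edgeR (1.34% of all genes were), 4 were called by DESeq2 (11.6%) and 1 by limma-voom (1.34%). Without library 6 edgeR called 9 of them (33.6%). In bulk libraries fewer cells of a type and less RNA per cell cannot be told apart. The part of these markers in the differences between libraries 4, 5 and 6 at the 46 loci was not tested. The 40 primary response genes, the known answer to cyclic AMP, had 10 called higher by edgeR (0.172% of all genes were), 23 called by DESeq2 (11.6%), 9 by limma-voom (1.34%) and 28 by edgeR without library 6 (33.6%), with a median log2 fold change of 1.24, and summed to 1169 to 1940 CPM with DMSO and to 3843, 3841 and 2512 CPM in libraries 4, 5 and 6. Library 6 was the lowest treated library in this sum, as it was in the sum of the 46 loci.

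**Figure D4:**
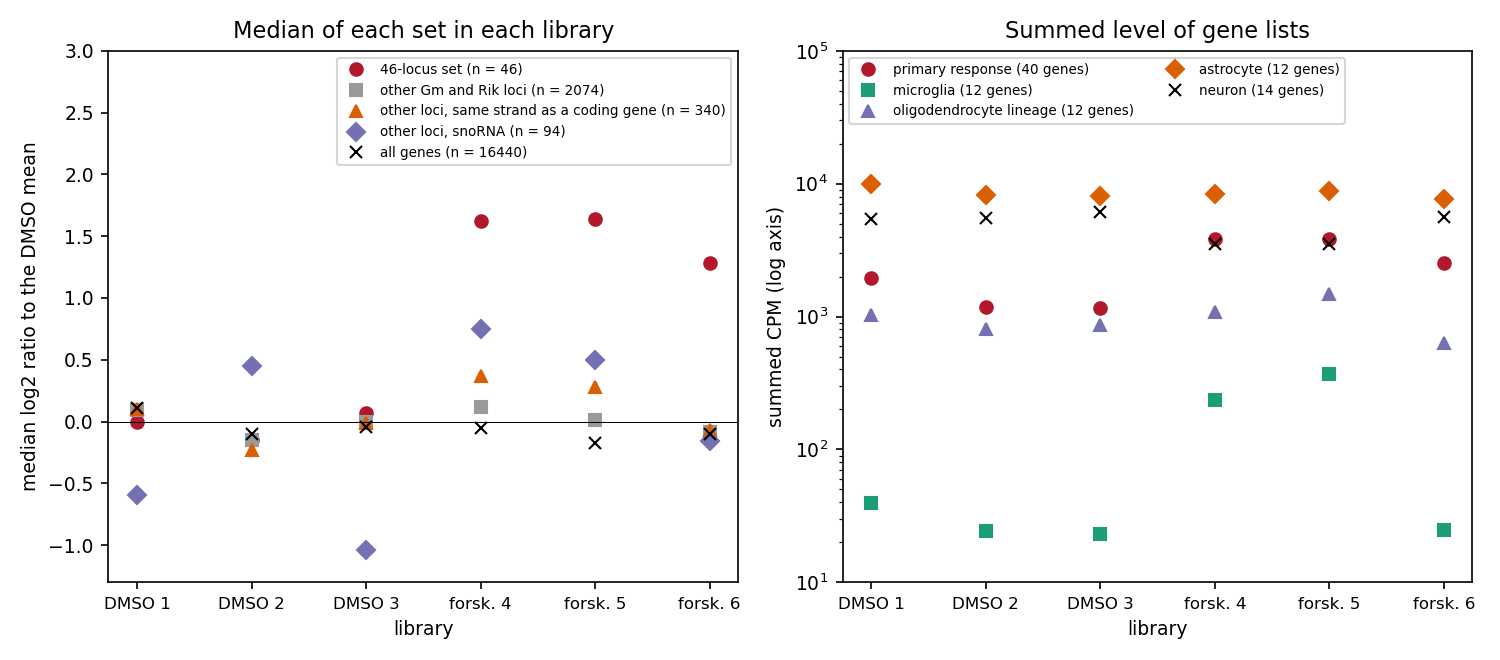
Left, median log2 ratio to the DMSO mean in each library for the 46 loci, other Gm and Rik loci and all genes; right, summed CPM (log axis) of the primary response and cell type marker lists in each library. The 46 loci stand at 1.62, 1.64 and 1.28 in libraries 4, 5 and 6, while the microglia sum is 234, 369 and 24.7 CPM there.

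None of the 46 loci is in the authors' deposited table of 132 genes, in which the smallest mean normalised count is 126; 4 of the 46 have a mean raw count at or above that value. Of the coding neighbours the authors' deposited table holds only Cyr61, with a log2 fold change of 1.857 and an adjusted p-value of 2.75e-10.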

How the data were processed

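The libraries were made with Illumina protocols from total RNA extracted with Trizol and chloroform, per the labels. A table of unnormalised counts was deposited, in which each library is a column and each gene symbol a row. Salmon, DESeq and build GRCm38 are named in the submitters' processing notes, with no role or version; the strand setting and annotation are not given in the sources used here. A second deposited table of the authors' results holds, per its headers, their log2 fold changes and errors. It also gives the deposited mean over libraries of the normalised count, a signal. Raw and adjusted p-values stand there as the authors gave them, next to the authors' test score.

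The loci and gene lists were chosen with earlier results of these data known. Counts were tested with R 4.3.3 and edgeR 4.0.16 (filterByExpr with a minimum count of 10 and a minimum total of 15, TMM, glmQLFit and glmQLFTest, group as the only term, Benjamini-Hochberg over 16233 genes, threshold 0.05); SE is the absolute log2 fold change over the square root of F. The fit was tested on simulated data. Alternatives used DESeq2 1.42.0, limma 3.58.1 (voom), RLE factors, library size alone, no filter, removal of each library's trend on GC content, and leaving out each library. CPM per library used column totals, without TMM. Library medians used a pseudocount of 0.05 CPM. Loci were matched by symbol to GENCODE M21 (GRCm38, 41 loci), then by RefSeq synonym (4), leaving 1. Transcripts were compared with BLAST 2.17.0. Loci given in full are the 15 with the highest mean count and the 15 with the largest ratio of the lowest forskolin to the highest DMSO library, 25 in all; coding neighbours of these are named, and others were chosen after their values were seen. Depth was 28342764 to 47548379 counts, and counting error is large for loci with few counts.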

Additional observations from a re-analysis of the deposited data

How the results depend on the processing

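The rule chose 46 loci. It chose 59 with CPM on TMM-scaled library sizes and 73 with the mitochondrially encoded genes left out of the totals. At a ratio of 2 it chose 18, at a mean count of 20 or more 26, and at 50 or more 13. With 1 library left out it chose 51 to 210, the most without library 6. Leaving out a library can only keep or raise the ratio, so a larger set was fixed in advance, apart from the mean count. edgeR called 245 of all genes, DESeq2 1765, RLE factors 137, removal of the GC trend 0, and leaving out 1 library gave 0 to 5698, with 5698 only without library 6. Increases were 11.4% of calls with TMM factors, 45.0% with DESeq2, 21.7% with no filter and 49.1% without library 6. Of the coding neighbours edgeR called 0, DESeq2 2, edgeR with no filter 1, and leaving out 1 library gave 0 to 11, with 11 only without library 6. The cause was not tested. The log2 fold changes of the 46 loci ran from 0.62 to 3.90 over 552 values under alternatives, with Gm22490 left out of the highest value. The loci were chosen on this contrast, so their sign says nothing of stability. Some signs beside the loci turned. With the GC trend removed Aebp2 was at -0.17, Cerk at 0.05, Ddx5 at -0.06 and Dleu2, a noncoding host, at -0.11 in place of 0.59; with library size alone Chkb was at -0.07. Leaving out 1 library gave Chkb -0.06 to 0.18, Atp2a2 -0.36 to 0.03, Camk2d -0.55 to 0.07, Cpeb2 -0.09 to 0.31 and Usp33 -0.27 to 0.06. No paired analysis was possible because the libraries are numbered 1 to 6 across the groups, which share no replicate number. Depth limits loci with 10 counts or fewer in DMSO.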

Other observations

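Among the other Gm and Rik loci, those of the annotated types antisense, lincRNA and coding had medians near the DMSO level in every treated library. Their median log2 ratios to the DMSO mean in libraries 4, 5 and 6 were 0.03, -0.09 and -0.12 for 387 antisense loci, 0.01, -0.10 and -0.02 for 377 lincRNAs and 0.05, -0.03 and -0.06 for 343 coding loci. The 35 sense intronic loci, which lie in introns of coding genes as Gm17024 does, stood at 0.32, 0.34 and -0.04. These other loci are what was left once the loci meeting the rule on this contrast were taken out. Shares called higher among them are therefore lowered in advance and do not rank them against all genes. Of the 1987 other loci tested, edgeR called 0 higher at an adjusted p under 0.05 (0.172% of all genes were). At an unadjusted p under 0.05 in edgeR 185 were higher, as were 1455 of 13809 coding genes tested. limma-voom called 0 higher (0.148% of all genes). DESeq2 called 37 of 1508 higher (2.45%, against 5.20% of all genes), and edgeR without library 6 called 232 of 2060 (11.3%, against 16.5%).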
